A study of Mus musculus with 12 samples.

Results

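Collagens are secreted or membrane-bound proteins whose 3 chains wind into a triple helix, and each chain has its own gene. Every row of the deposited gene table whose symbol has the form Col, a type number, the letter a and a chain number was taken, which gave 44 collagen genes of 23163 rows. They were described across brown adipose tissue (BAT, the fat that burns fuel for heat) and subcutaneous white adipose tissue (sWAT, the storage fat under the skin). The tissues came from wild-type male C57Bl/6 mice aged 8 to 12 weeks, with no transgene or deletion named. They had been housed for 72 hours at 4 °C (cold) or at 30 °C (thermoneutral, where a mouse needs no extra heat). The 4 groups, BAT thermoneutral, BAT cold, sWAT thermoneutral and sWAT cold, hold 3 libraries each, numbered 1 to 3 after their titles (Exp #1 to Exp #3). The titles do not say what that number stands for, and the main fits hold no term for it. The labels give 10 mice per temperature, and they do not say whether a library is an animal or a pool, so a p-value here measures only the spread between these libraries. RNA came from whole tissue, so fewer cells of a type and less RNA per cell cannot be told apart.

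Collagen chains fall into classes by the structure they build. Fibrillar collagens (types I, II, III, V, XI, XXIV and XXVII) form the rope-like fibres of connective tissue, made in fat mainly by fibroblasts and progenitor cells. Network collagens of basement membranes (type IV, with types XV and XVIII nearby) form the thin sheets around each adipocyte and each capillary. Type VI forms beaded filaments that link cells to fibres and is abundant in fat, while fibril-associated collagens sit on the surface of fibrils. After synthesis the chains are hydroxylated, folded, cut at their ends and crosslinked by enzymes that are described further on.

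The table held 11 fibrillar, 8 basement membrane, 6 beaded filament, 9 fibril-associated, 3 hexagonal network and 4 membrane-spanning collagen genes, and 3 others (Col7a1, Col26a1 and Col28a1). Levels are CPM, a gene's count scaled to a common library size. Where genes are compared with each other the CPM is divided by the length of the longest transcript in kilobases (CPM per kb). Per length, the most abundant collagens over the 12 libraries were Col3a1 with a mean of 143 CPM per kb, Col4a1 with 89.5, Col4a2 with 70.1, Col1a2 with 63.9 and Col1a1 with 53.7. At the other end, 4 genes were at the limit of detection and entered no test. Col9a1 had 11 counts in all libraries together, Col25a1 had 22, Col19a1 had 23 and Col2a1, the main collagen of cartilage, had 28.

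Upstream sequence is shown for 3 genes whose values are discussed further on, from RefSeq promoter windows of build GRCm38.p6, which reach from 250 bases before a gene's start to 50 after it. Only bases before the start that lie in no annotated untranslated exon are shown. They give the context of the most abundant collagen, which was lower in cold sWAT (Col3a1), and of the genes with the smallest adjusted p among those lower in cold BAT (Col20a1 and Col28a1). Capitals mark the motifs searched: CCAAT or its reverse ATTGG, the TATA motif TATAAA or TTTATA, and the GC box GGGCGG or CCGCCC.
Col3a1, chr1:45311288-45311537, plus strand: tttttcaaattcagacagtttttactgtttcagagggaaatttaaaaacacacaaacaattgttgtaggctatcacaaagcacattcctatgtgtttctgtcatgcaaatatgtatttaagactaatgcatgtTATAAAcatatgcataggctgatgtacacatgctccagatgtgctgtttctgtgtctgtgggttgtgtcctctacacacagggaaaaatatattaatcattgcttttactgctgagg
Col20a1, chr2:180986285-180986534, plus strand: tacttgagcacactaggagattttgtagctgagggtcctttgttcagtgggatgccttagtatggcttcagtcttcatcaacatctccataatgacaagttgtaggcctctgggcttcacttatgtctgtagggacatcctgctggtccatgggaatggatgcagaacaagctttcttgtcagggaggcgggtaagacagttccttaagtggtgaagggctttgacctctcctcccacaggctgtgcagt
Col28a1, chr6:8192618-8192867, minus strand: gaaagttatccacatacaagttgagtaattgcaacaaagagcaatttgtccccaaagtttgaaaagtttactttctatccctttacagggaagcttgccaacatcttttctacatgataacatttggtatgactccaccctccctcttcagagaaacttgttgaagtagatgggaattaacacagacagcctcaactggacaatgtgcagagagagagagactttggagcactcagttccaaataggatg
The stretch before Col3a1 was 35.2% G and C and held a single TATA motif. None of the 3 motifs was found in the 250 bases before Col20a1 or Col28a1, which says only that these letters are not in those windows. Among the 35 collagen genes with a window, 13 (37.1%) held the CCAAT motif in 300 bases on either strand, 5 (14.3%) the TATA motif and 22 (62.9%) the GC box. A collagen gene with several windows was counted if any of them held the motif. All 32851 windows of the same length were counted singly, with shares of 37.4%, 13.6% and 35.7%, so the shares are not counted alike. Such matches are a description and not evidence of a bound factor.

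Col4a1 (chr8:11198423-11312826, minus strand) and Col4a2 (chr8:11312805-11449287, plus strand), which encode the chains of the main basement membrane network, lie head to head and their first exons overlap by 22 bases in GENCODE M21 (mm10). Col4a4 and Col4a3 on chromosome 1 are arranged the same way with 71 bases between their starts, and Col4a6 and Col4a5 on chromosome X with 1308 bases. The strand setting of the counting is not given in the sources used here, so reads from exons shared between strands could have gone to either gene. Exon bases shared with a gene on the opposite strand were found in 10 of the 44 collagens. The largest shares with a single gene were 6.07% for Col9a3 and 5.65% for Col4a3. Col4a1 and Col4a2 shared 0.295% and 0.332% of their exon bases with each other, and Col4a2 also shared 0.65% with the antisense gene Gm15419.

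Total counts were 27117934 to 56243016 per library, and the share taken by collagens was 0.868% to 1.46% in sWAT at thermoneutrality and 0.125% to 0.283% in the remaining 9. The 3 sWAT thermoneutral libraries stood apart in other ways too. Genes of mitochondrial DNA took 0.181% to 0.307% of their counts, against 17.6% to 53.8% elsewhere. Across genes, their log2 CPM sloped upward with transcript GC content by 0.91 to 1.50 per 10 percentage points, against -0.69 to 0.33 elsewhere. All libraries of that group share these properties. They therefore cannot be told apart from the effect of temperature in sWAT or from the difference between tissues at thermoneutrality. The sWAT calls are therefore given also from a fit with a GC offset, a correction of each library for its smoothed trend with transcript GC. Adipocyte markers were present in every library, with 10 marker genes summing to 7489 to 24709 CPM.

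In BAT, Col4a1 and Col4a2, 2 of 7 basement membrane collagens tested, were higher in cold, 3 less abundant collagens were lower, and the main fibrillar collagens did not pass the test. Of 30 collagen genes tested, Col4a1 and Col4a2 rose, Col6a6, Col20a1 and Col28a1 fell, and 25 did not pass adjusted p 0.05 (edgeR's quasi-likelihood F test, p adjusted by Benjamini and Hochberg over all 14612 genes tested). Across all genes tested, 6.82% rose and 5.34% fell, so 2 and 3 of 30 collagens are close to that background. The median log2 fold change of the 30 was -0.12, beside -0.04 over all genes. The other 14 collagens were too low in BAT to be tested.

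Col4a1 stood at 418, 297 and 138 CPM in BAT thermoneutral libraries 1 to 3 and at 928, 865 and 659.5 CPM in the cold ones. The groups did not overlap, and the log2 fold change was 1.58 ± 0.41 (SE, n = 3 and 3; adjusted p = 0.0395 by edgeR). Col4a2 stood at 286, 228 and 128 CPM at thermoneutrality and at 794, 838 and 559 CPM in cold. It did not overlap between groups either and rose by 1.83 ± 0.36 on the log2 scale (adjusted p = 0.0158 by edgeR). Per length the 2 chains kept close levels, with a Col4a1 to Col4a2 ratio of 1.05 to 1.43 in the 3 thermoneutral BAT libraries and 1.01 to 1.15 in the 3 cold ones. Both calls rest on few libraries. Without BAT thermoneutral library 2, BAT cold library 1 or BAT cold library 2 the adjusted p by edgeR was 0.118 to 0.125 for Col4a1 and 0.0600 to 0.0707 for Col4a2, and Col4a1 was at 0.0551 without BAT thermoneutral library 1. The direction held in each of these fits, and both genes passed in edgeR with the GC offset (log2 fold change 1.62, adjusted p = 0.00754, and 1.94, adjusted p = 0.00308).

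The other basement membrane collagens did not pass in BAT. Col15a1, a proteoglycan-like collagen of the zone around vessels and muscle fibres, stood at 48.1, 31.3 and 22.2 CPM at thermoneutrality and 44.1, 46.8 and 45.1 CPM in cold, so that library 1 at thermoneutrality was above all cold ones (0.48 ± 0.30, adjusted p = 0.325 by edgeR). Col18a1, the source of the fragment endostatin, had a log2 fold change of 0.21 ± 0.39. Col4a3, Col4a4 and Col4a5, chains of the networks known from kidney, lung and other tissues, lay between -0.14 and 0.34 on the log2 scale. Endothelial markers, whose cells also make type IV collagen, summed over 11 genes to 907 to 1527 CPM at thermoneutrality and 1568 to 1675 CPM in cold. Of these 11, only Eng passed (log2 fold change 1.91 ± 0.33, adjusted p = 0.0107 by edgeR), and the median was 0.24. The part of endothelial cells in the Col4a1 and Col4a2 values was not tested.

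Col28a1, which encodes a collagen with von Willebrand factor domains known from peripheral nerve, had the smallest adjusted p among collagens in BAT. It stood at 10.3, 7.21 and 10.1 CPM at thermoneutrality and at 1.16, 1.60 and 1.38 CPM in cold, with a wide gap between the groups (-2.67 ± 0.31, adjusted p = 0.00283 by edgeR). Schwann cell markers, a list of 8 genes, summed to 149.7 to 207 CPM at thermoneutrality and 168 to 179.7 CPM in cold, where S100b alone passed and was higher (1.26 ± 0.25). Col20a1, a fibril-associated collagen, stood at 16.7, 12.0 and 9.93 CPM at thermoneutrality and at 3.36, 3.70 and 2.52 CPM in cold. It fell by 1.95 ± 0.32 on the log2 scale (adjusted p = 0.00842 by edgeR), and its call, like that of Col28a1, stood without any single library. Col6a6, a chain of type VI collagen, stood at 5.65, 4.86 and 4.43 CPM and at 1.39, 1.87 and 2.69 CPM, and fell by 1.26 ± 0.34 (adjusted p = 0.0442 by edgeR). Its call was lost without BAT thermoneutral library 1 or 2 or BAT cold library 1 or 2, with an adjusted p by edgeR of 0.122 to 0.183.

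**Figure D1:**
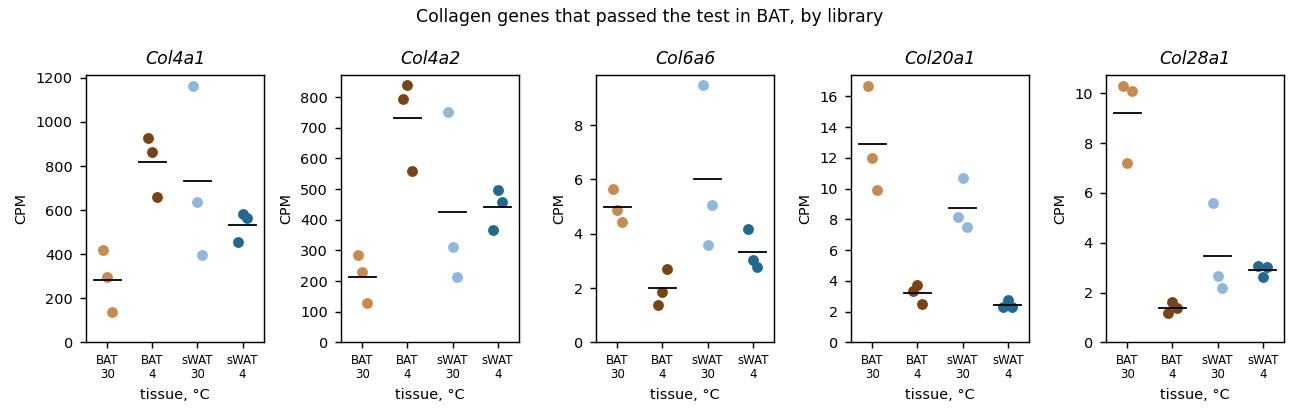
CPM of the 5 collagen genes that passed the test in BAT, by tissue and housing temperature in °C; each point is a library, the black line is the mean of 3, and each panel has its own axis from 0. In BAT the groups do not overlap for any of the 5, with Col4a1 and Col4a2 higher at 4 °C and the other 3 lower.

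The main fibrillar collagens of BAT overlapped between temperatures. Col3a1, the chain of type III collagen, stood at 425, 271 and 188 CPM at thermoneutrality and 215, 202 and 352 CPM in cold (-0.14 ± 0.37, adjusted p = 0.841 by edgeR). Col1a2 stood at 159.9, 93.9 and 79.3 CPM and at 77.5, 75.8 and 135 CPM (-0.14 ± 0.36). Col1a1, its partner in type I collagen, stood at 93.1, 50.4 and 72.7 CPM and at 78.4, 91.2 and 130.1 CPM (0.53 ± 0.32). Cold library 3 was the highest of the cold libraries for all 3 genes. It also had the highest mitochondrial share of all libraries, 53.8%, while thermoneutral library 3 had the lowest of BAT, 17.6%. Without both BAT libraries numbered 3, the calls for the 5 genes stood, and 9 more collagens were lower in cold. They include Col3a1 (log2 fold change -0.67, adjusted p = 0.0340 by edgeR) and Col1a2 (-0.66, adjusted p = 0.0385 by edgeR). In that fit 3265 genes were higher and 3244 lower of all 14566 tested, against 996 and 781 with all libraries.

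Apart from Col20a1, the minor fibrillar and fibril-associated collagens of BAT did not pass with all libraries. Col27a1, a fibrillar collagen with a shortened helix, stood at 325, 177 and 115 CPM at thermoneutrality and at 94.6, 102 and 91.7 CPM in cold, so every cold library was lower (-1.03 ± 0.37, adjusted p = 0.106 by edgeR). Col11a2 stood at 32.1, 17.3 and 8.74 CPM and at 8.29, 6.74 and 2.02 CPM, also without overlap, and passed with the GC offset and not without it (-1.71 ± 0.59, adjusted p = 0.0952 by edgeR; 0.00431 with the offset). Col9a3 (-1.88 ± 0.69) and Col23a1 (-1.08 ± 0.33) did likewise. These 3 genes also passed in some of the alternatives without an offset, such as DESeq2 for Col11a2 and Col23a1 and the replicate block for Col11a2 and Col9a3. Cold library 3 held the highest level of several minor collagens. Col12a1 stood at 15.3, 18.6 and 10.9 CPM at thermoneutrality and at 6.99, 7.59 and 25.1 CPM in cold. Col14a1 stood at 4.53, 2.40 and 4.54 CPM and at 3.72, 5.39 and 11.3 CPM (0.89 ± 0.46). Type V chains Col5a1, Col5a2 and Col5a3 had log2 fold changes of -0.19, 0.64 and 0.11, and Col16a1 of -0.05, with overlapping groups. Col24a1 was lower in every cold library and did not pass (-1.17 ± 0.46, adjusted p = 0.132 by edgeR).

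The 3 abundant chains of beaded filament collagen VI did not pass in BAT. Col6a2 stood at 144, 86.2 and 63.2 CPM at thermoneutrality and 85.8, 93.7 and 68.9 CPM in cold (-0.18 ± 0.33). Col6a1 stood at 123, 71.7 and 48.4 CPM and at 69.6, 76.6 and 77.4 CPM (-0.05 ± 0.34). Col6a3, the chain that carries endotrophin at its end, stood at 78.1, 52.7 and 66.4 CPM and at 65.6, 77.9 and 97.6 CPM (0.35 ± 0.27). For each chain the groups overlapped. Over all 30 tested collagens, the groups did not overlap for 2 that were higher and 8 that were lower in cold BAT, and 16.0% and 19.7% of all genes tested behaved so.

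In sWAT, 7 of 10 fibrillar, 5 of 7 fibril-associated and 3 of 6 beaded filament collagens were lower in cold, and with the GC offset 6, 4 and 0 were. The main basement membrane chains did not pass without the offset. Of 40 collagens tested, 3 were higher in cold (Col10a1, Col4a3 and Col24a1), 19 were lower and 18 did not pass. Over all 15731 genes tested, 25.1% were higher and 24.1% lower (3656 and 3183 genes with the offset), and the median of the 40 was -0.95 beside 0.00 over all genes. With the GC offset 7 were higher and 11 lower, 10 of the 19 lower calls and all 3 higher calls were kept, and the median was -0.40.

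Among fibrillar collagens 7 of 10 tested were lower in cold sWAT. Col3a1 stood at 2692, 2163 and 1536 CPM at thermoneutrality and at 643, 381 and 464 CPM in cold, and its log2 fold change was -2.10 ± 0.40 (adjusted p = 0.00309 by edgeR), or -1.76 with the GC offset (adjusted p = 0.00749). Col1a2 stood at 1313, 871 and 733 CPM and at 219, 169 and 176 CPM, a log2 fold change of -2.37 ± 0.36 (adjusted p = 0.00124 by edgeR), or -1.65 with the offset (adjusted p = 0.00573). Col1a1 stood at 1434, 812 and 599.8 CPM and at 178, 154 and 125 CPM, a log2 fold change of -2.64 ± 0.42 (adjusted p = 0.00145 by edgeR), or -1.58 with the offset (adjusted p = 0.0137). For these 3 genes of types I and III each thermoneutral library was above each cold one, and both fits called them.

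The remaining fibrillar genes depended more on the fit. Col11a2, a minor fibrillar chain, stood at 26.1, 29.7 and 22.9 CPM at thermoneutrality and at 4.04, 6.58 and 8.68 CPM in cold (-2.04 ± 0.32, adjusted p = 0.00133 by edgeR; -0.68 with the offset, adjusted p = 0.0474). Type V collagen regulates fibril diameter. Its chain gene Col5a2 had a log2 fold change of -0.99 ± 0.33, or -1.05 with the offset, and both passed, although the edgeR adjusted p was 0.0842 to 0.128 without sWAT thermoneutral library 1 or 2 or cold library 2 or 3. Col5a1 (-1.80 ± 0.32) and Col5a3 (-2.27 ± 0.47) lost their calls with the offset, at -0.81 for both (adjusted p = 0.0652 and 0.246 by edgeR). Col24a1 went the other way at a low level, from 0.209, 0.582 and 0.171 CPM to 1.00, 0.864 and 1.00 CPM (1.59 ± 0.52, adjusted p = 0.0318 by edgeR; 1.72 with the offset), and its adjusted p by edgeR was 0.0539 to 0.102 without sWAT thermoneutral library 1 or 3 or cold library 2 or 3. Col27a1, at 34.4, 53.4 and 35.8 CPM and 31.5, 52.1 and 62.6 CPM, had a log2 fold change of 0.24 ± 0.30 and passed with the offset (1.26, adjusted p = 0.00652 by edgeR).

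**Figure D2:**
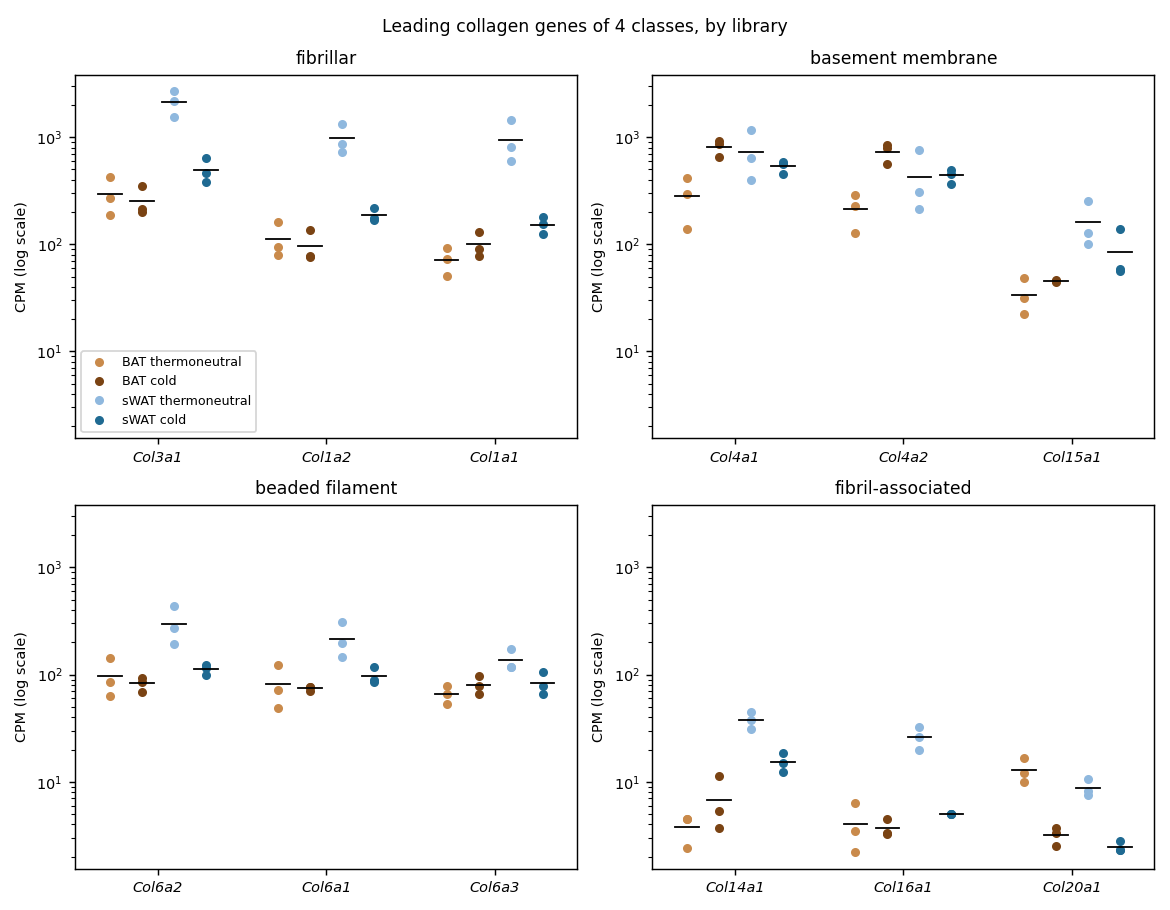
CPM on a log scale of the 3 collagens with the highest level per length in each of 4 classes; each point is a library and the black line is the mean of 3. For Col3a1, Col1a2 and Col1a1 the sWAT thermoneutral libraries lie above all others, while Col4a1 and Col4a2 in BAT cold lie above BAT thermoneutral.

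Fibril-associated collagens were lower in cold sWAT in 5 of 7 tested. Col16a1 stood at 32.6, 26.0 and 19.9 CPM at thermoneutrality and at 4.97, 4.98 and 4.98 CPM in cold, the smallest adjusted p among sWAT collagens (-2.40 ± 0.27, adjusted p = 0.000428 by edgeR; -1.11 with the offset, adjusted p = 0.0134). Col9a3, a chain of the cartilage collagen IX, stood at 3.79, 5.00 and 3.66 CPM and at 0.519, 0.358 and 0.532 CPM (-3.13 ± 0.37, adjusted p = 0.000478 by edgeR; -2.06 with the offset, adjusted p = 0.00346). Col20a1 stood at 8.14, 10.7 and 7.47 CPM and at 2.30, 2.77 and 2.29 CPM (-1.84 ± 0.28, adjusted p = 0.00128 by edgeR; -1.10 with the offset, adjusted p = 0.00838). In the main edgeR fits it was the only collagen lower in cold in both tissues, and its difference between tissues was 0.17 ± 0.40. With the offset Col11a2 and Col9a3 were lower in both tissues too, and with DESeq2 Col11a2 and Col23a1 were. Col14a1, which binds fibrils through decorin, stood at 44.8, 38.1 and 31.1 CPM and at 18.7, 12.3 and 15.0 CPM (-1.31 ± 0.27, adjusted p = 0.00451 by edgeR; -1.35 with the offset). Col9a2 (-2.46 ± 0.59) lost its call with the offset (-1.02, adjusted p = 0.196 by edgeR).

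Of 6 type VI chains tested, 3 were lower in cold sWAT by the test without the offset and 3 did not pass. With the offset 0 of 6 passed by edgeR (1 at an unadjusted p below 0.05). Col6a2 stood at 438, 269.7 and 192 CPM at thermoneutrality and at 123, 116 and 98.9 CPM in cold (-1.42 ± 0.35, adjusted p = 0.0105 by edgeR; -0.63 with the offset, adjusted p = 0.132). Col6a1 stood at 307, 196 and 145 CPM and at 118, 88.5 and 84.8 CPM (-1.15 ± 0.34, adjusted p = 0.0219 by edgeR; -0.31 with the offset, adjusted p = 0.450). Col6a3 stood at 173, 119 and 119 CPM and at 105, 79.1 and 66.4 CPM and passed in neither fit (-0.72 ± 0.29, adjusted p = 0.0711 by edgeR; -0.14 with the offset). Col6a4, another type VI chain, had a log2 fold change of -1.90 ± 0.58 and lost its call with the offset (-1.35, adjusted p = 0.0771 by edgeR). The groups did not overlap for these 4 chains. Even without the offset the calls rested on few libraries. The adjusted p by edgeR was 0.0691 to 0.0903 for Col6a1 and 0.0703 to 0.0981 for Col6a4 without sWAT thermoneutral library 1, cold library 2 or cold library 3, and 0.0516 for Col6a2 without cold library 3.

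The main basement membrane chains overlapped between temperatures in sWAT. Col4a1 stood at 1164, 635 and 398 CPM at thermoneutrality and at 455, 583 and 563 CPM in cold, inside the thermoneutral range (-0.47 ± 0.42, adjusted p = 0.383 by edgeR; 0.47 with the offset, adjusted p = 0.326, so the direction turned). Col4a2 stood at 752, 310.4 and 213 CPM and at 367, 496 and 457 CPM (0.04 ± 0.47, adjusted p = 0.952 by edgeR), and with the offset its log2 fold change of 1.23 just passed (adjusted p = 0.0492). Per length the Col4a1 to Col4a2 ratio was 1.51 to 2.00 at thermoneutrality and 1.15 to 1.21 in cold, so the balance of the 2 chains differed without overlap, while their transcripts had GC contents of 57.7% and 60.6%. Col15a1 stood at 251, 128 and 101 CPM and at 140.1, 56.0 and 58.9 CPM, overlapping groups that did not pass (-0.91 ± 0.48, adjusted p = 0.144 by edgeR; -0.06 with the offset). Col18a1 was lower (-1.68 ± 0.30, adjusted p = 0.00253 by edgeR) and lost its call with the offset (-0.41, adjusted p = 0.355). Col4a3 was higher at a low level, from 0.581, 0.461 and 0.265 CPM to 2.00, 0.924 and 1.44 CPM, in both fits (1.75 ± 0.48, adjusted p = 0.0153 by edgeR; 1.81 with the offset), and its adjusted p by edgeR was 0.0521 without sWAT thermoneutral library 2. Endothelial markers, 11 genes, summed to 381 to 629 CPM at thermoneutrality and 587 to 895 CPM in cold. Of these 11, 5 were higher and 1 lower (5 and 0 with the offset), where 25.1% and 24.1% of all genes were. The part of endothelial cells in these collagen values was not tested.

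The small classes held single genes that moved in opposite directions in sWAT. Col10a1, the collagen of hypertrophic cartilage, stood at 0.209, 0.146 and 0 CPM at thermoneutrality (15 counts in all) and at 0.964, 0.596 and 0.783 CPM in cold (97 counts), and was higher in both fits (2.76 ± 0.80, adjusted p = 0.0198 by edgeR; 2.83 with the offset), though its adjusted p by edgeR was 0.0624 without sWAT thermoneutral library 2. Col8a2, a network collagen of vessel walls and cornea, stood at 0.418, 0.461 and 0.398 CPM and at 0.0185, 0.0298 and 0.125 CPM (-2.95 ± 0.65, adjusted p = 0.00616 by edgeR; -1.97 with the offset). Its partner Col8a1 stood at 1.51, 2.72 and 1.71 CPM and at 2.76, 2.38 and 4.17 CPM and did not pass (0.65 ± 0.38; 0.24 with the offset). Of the membrane-spanning collagens, Col13a1, found at cell adhesion sites, stood at 2.09, 1.24 and 0.929 CPM and at 1.43, 4.11 and 3.35 CPM, overlapping, and passed with the offset and not without it (1.04 ± 0.48, adjusted p = 0.103 by edgeR; 2.03 with the offset), and it passed without the offset when cold library 1 was left out. Col23a1 stood at 5.51, 4.46 and 5.57 CPM and at 3.54, 2.41 and 2.66 CPM, and its call (-0.85 ± 0.31, adjusted p = 0.0465 by edgeR) was lost with the offset (-0.22) and, at 0.0662 to 0.155, without any of sWAT thermoneutral libraries 1 to 3 or cold libraries 2 and 3. Col26a1 likewise lost its call with the offset (-1.36 ± 0.48; -0.22 with the offset) and, at 0.0790 to 0.152, without sWAT thermoneutral library 1 or 2 or any cold library. Col7a1, the anchoring fibril collagen of skin, stood at 11.2, 13.8 and 6.58 CPM and at 4.19, 11.0 and 12.6 CPM, and its direction turned between the fits (-0.20 ± 0.43, adjusted p = 0.727 by edgeR; 1.00 with the offset, adjusted p = 0.0311). 

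Col28a1 stood at 5.58, 2.67 and 2.20 CPM and at 3.08, 2.62 and 3.04 CPM, overlapping, with -0.26 ± 0.41 (-0.32 with the offset). In BAT, Col8a1 stood at 10.3, 7.06 and 4.90 CPM against 4.52, 4.64 and 17.1 CPM in cold, and Col13a1 at 9.20, 4.95 and 3.21 CPM against 8.38, 7.02 and 2.66 CPM. Neither passed there, nor did Col23a1 without the offset (4.93, 6.22 and 3.61 against 2.19, 1.90 and 2.62 CPM) or Col7a1 (17.1, 10.8 and 6.86 against 10.6, 9.36 and 4.14 CPM). The sWAT collagens that passed in neither fit, beside those already named, were Col4a4, Col4a5, Col4a6, Col6a5, Col6a6, Col12a1, Col17a1 and Col22a1, with log2 fold changes of -1.49 to 0.62. Col11a1, a minor chain at 0.581, 0.461 and 0.265 CPM and then 0.204, 0.179 and 0.188 CPM, passed with the offset (-1.17 ± 0.47; -1.44 with the offset, adjusted p = 0.0399 by edgeR) and, without it, when sWAT thermoneutral library 3 was left out.

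**Figure D3:**
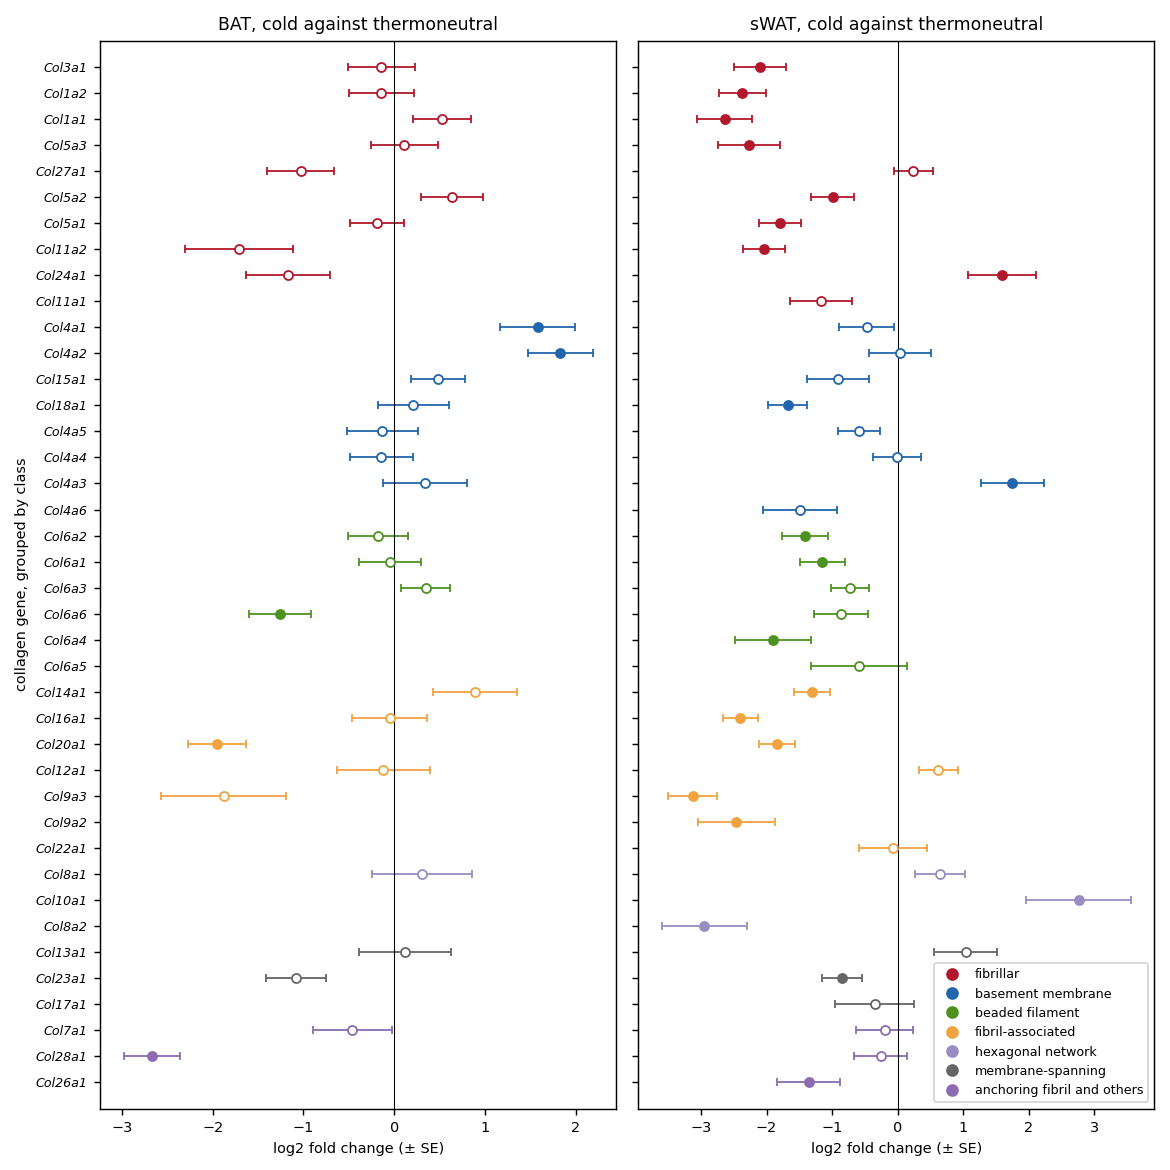
Log2 fold change of cold against thermoneutral housing in BAT (left) and sWAT (right) for each tested collagen, ordered by class and by level within a class; bars are the SE of 3 against 3 libraries, filled points passed adjusted p 0.05 and open points did not. In BAT 2 basement membrane genes are filled on the right of 0 and 3 genes on the left, while in sWAT 19 are filled on the left and 3 on the right.

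The sWAT fold changes of collagens ran against transcript GC content. Across the 40 genes the correlation of GC content with log2 fold change was -0.48 (Pearson, genes within the same 6 libraries and not independent), beside -0.51 across 15331 genes with a GC value. With the offset it was -0.10, and in BAT it was 0.02 over 30 collagens. Groups did not overlap for 4 collagens that were higher and 23 that were lower in cold sWAT, where 30.1% and 30.5% of all genes tested did so. Cell markers were counted in the same comparison, where 25.1% of all genes tested were higher and 24.1% lower. With the offset 3656 and 3183 of all 15731 genes were. Fibroblast and progenitor markers, 14 genes, summed to 4572 to 6138 CPM at thermoneutrality and 2098 to 2844 CPM in cold. Of these 14, 0 were higher and 5 lower, or 2 and 3 with the offset. Without the offset Vim, Mfap5 and Pi16 had the smallest adjusted p, at -1.61 ± 0.30, -1.44 ± 0.29 and -1.08 ± 0.23. Macrophage markers, 12 genes, summed to 1014 to 1601 CPM and 312 to 472 CPM, with 6 lower and 1 higher (7 and 0 with the offset). Skeletal muscle markers, 14 genes, were at 114 to 4918 CPM and 7642 to 21236 CPM, with 10 higher in both fits. The part of these cell types in the collagen values was not tested.

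**Figure D4:**
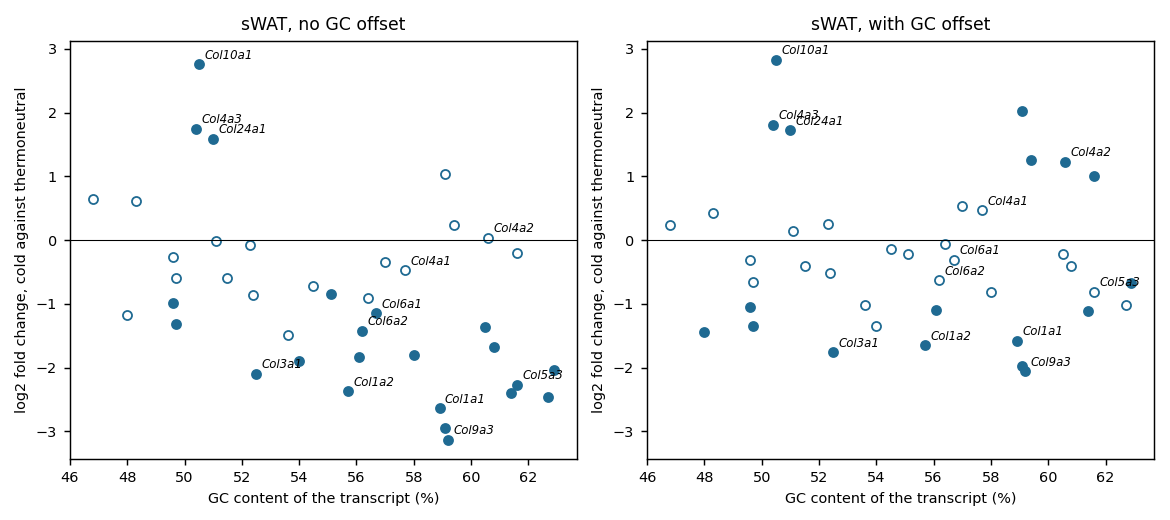
Log2 fold change of cold against thermoneutral housing in sWAT for the 40 tested collagens against the GC content of the longest transcript, without (left) and with (right) the GC offset; filled points passed adjusted p 0.05 and open points did not. Without the offset the points slope downward (Pearson -0.48) and with it they do not (-0.10), while Col3a1, Col1a2 and Col1a1 stay filled below 0.

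Adding the classes up as CPM per kb gives the make-up of collagen transcripts in each library. In BAT the basement membrane class took 30.3%, 34.6% and 26.5% of collagen transcripts at thermoneutrality and 65.1%, 64.5% and 50.2% in cold, a mean of 30.4% ± 4.07 and 59.9% ± 8.41 (SD, n = 3). Fibrillar collagens took 48.1%, 44.4% and 49.5% and then 23.1%, 22.6% and 35.9%. In sWAT the basement membrane class took 20.7%, 15.9% and 14.6% at thermoneutrality and 33.4%, 44.8% and 42.0% in cold, and fibrillar collagens 67.0%, 72.1% and 72.7% and then 50.6%, 39.4% and 43.6%. In both tissues the cold libraries thus held a larger share of basement membrane transcripts and a smaller share of fibrillar ones than the thermoneutral libraries, with no overlap. The sums behind these shares moved differently. In BAT the sum of the basement membrane class was 85.9 ± 37.2 CPM per kb at thermoneutrality and 249 ± 43.8 in cold (SD, n = 3), with fibrillar sums of 132 ± 54.2 and 112 ± 26.2. In sWAT the fibrillar sum was 863 ± 278 and 192 ± 42.4, with basement membrane sums of 221 ± 123 and 170.0 ± 10.8. Shares depend on the transcript lengths chosen and were not corrected for GC, and no test was made of them.

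**Figure D5:**
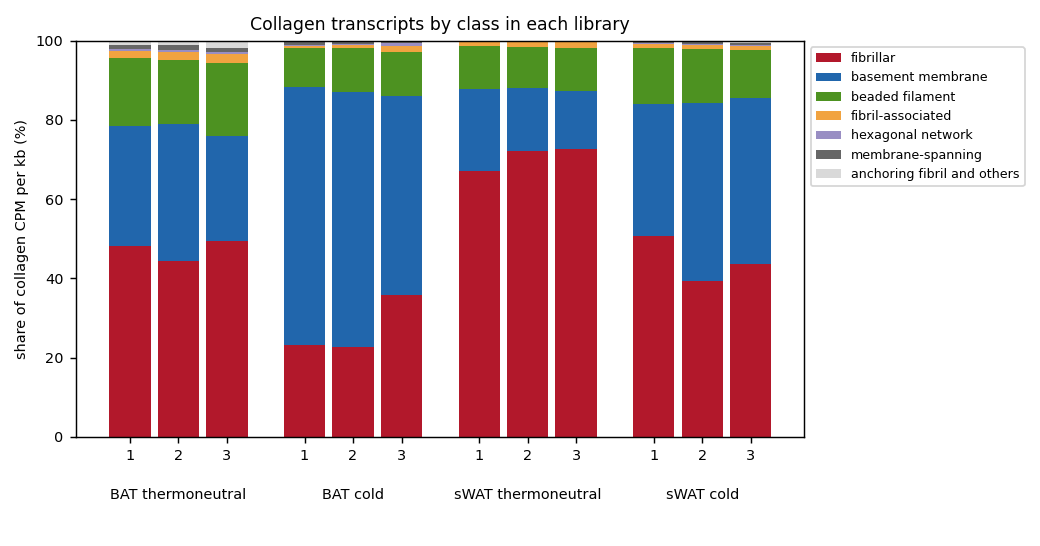
Share of each collagen class in the summed CPM per kb of the 44 collagens, in percent, in each of the 12 libraries (numbers 1 to 3 within a group). The basement membrane share is 50.2% to 65.1% in BAT cold against 26.5% to 34.6% in BAT thermoneutral, and 33.4% to 44.8% in sWAT cold against 14.6% to 20.7% in sWAT thermoneutral.

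Beaded filament collagens took 17.2% ± 1.08 of collagen transcripts in BAT at thermoneutrality and 10.7% ± 0.643 in cold, and 10.7% ± 0.350 and 13.3% ± 1.12 in sWAT (SD, n = 3), while each remaining class stayed at 2.42% or less in every library. Ratios between partner chains, which assemble into shared molecules, varied as well. The Col1a1 to Col1a2 ratio per length was 0.525, 0.484 and 0.827 in BAT thermoneutral libraries and 0.912, 1.08 and 0.868 in cold ones, and 0.738 to 0.985 and 0.640 to 0.824 in sWAT. The Col5a1 to Col5a2 ratio was 0.994 to 1.19 and then 0.432 to 0.794 in BAT, and 1.13 to 1.33 and then 0.611 to 0.808 in sWAT. These ratios are not corrected for GC, and with the offset the sWAT fold changes of the chains were -0.81 and -1.05, so the shift in sWAT is not seen there.

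The response to cold was compared between tissues in a fit over the 12 libraries, as the log2 fold change in sWAT minus that in BAT. Of 40 collagens tested, 11 had a lower value in sWAT and 2 a higher one, and among all 16365 genes tested the shares were 7.85% and 17.3%. The median difference of the 40 was -0.81, beside 0.12 over all genes. The lower ones were Col1a1 (-3.11 ± 0.52, adjusted p = 0.00192 by edgeR), Col1a2, Col3a1, Col5a1, Col5a2, Col5a3, Col14a1, Col16a1, Col18a1, Col8a2 and Col4a1. Col24a1 and Col28a1 had the higher values. With the GC offset there were 5 lower and 5 higher calls, where 1281 and 1902 of all 16365 genes were. The 5 lower ones, all kept from the fit without it, were Col1a1, Col3a1, Col5a2, Col14a1 and Col8a2. The higher ones were Col24a1 and Col28a1, which were kept, and Col7a1, Col13a1 and Col27a1, which were newly called. Col4a1 rose in BAT and had no call in sWAT, and the difference, -1.98 ± 0.62 (adjusted p = 0.0328 by edgeR), did not pass with the offset (-1.22, adjusted p = 0.0947) or without BAT thermoneutral library 3, sWAT thermoneutral library 1 or 2 or sWAT cold library 3 (adjusted p by edgeR 0.0501 to 0.0862). For Col4a2 it did not pass in either fit (-1.72 ± 0.62, adjusted p = 0.0579 by edgeR; -0.76 with the offset).

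At thermoneutrality the collagen total was higher in sWAT than in BAT. All collagens together came to 7144 ± 2638 CPM in sWAT and 1689 ± 676 CPM in BAT (SD, n = 3). These totals were not corrected for GC. The GC slope and low mitochondrial share of the sWAT thermoneutral libraries cannot be told apart from tissue here. Of 40 tested, 20 were lower in BAT and 7 higher, where 28.8% and 29.9% of all 16365 genes were, and with the GC offset 15 were lower and 10 higher. The largest differences on the lower side were Col6a4 (-8.35 ± 0.88, adjusted p = 8.36e-06 by edgeR), Col1a1 (-3.72 ± 0.40, adjusted p = 1.05e-05) and Col5a3 (-3.65 ± 0.47, adjusted p = 3.92e-05), and all 3 were called with the offset too. Col6a4 had 3 counts in the 3 BAT thermoneutral libraries and 1440 in the sWAT ones, a ratio of 370.3 with a 95% counting interval of 126 to 1798. The largest on the higher side were Col24a1 (2.33 ± 0.52, adjusted p = 0.00181 by edgeR), Col27a1 (2.32 ± 0.38, adjusted p = 0.000223) and Col13a1 (2.02 ± 0.55, adjusted p = 0.00647). Col27a1, named above, stood at 325, 177 and 115 CPM in BAT and 34.4, 53.4 and 35.8 CPM in sWAT at thermoneutrality, without overlap.

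In cold the tissues had close collagen totals, 2579.7 ± 116 CPM in BAT and 2567 ± 205 CPM in sWAT (SD, n = 3). By edgeR 0 of 40 collagens were higher and 2 lower in BAT than in sWAT, where 1.19% and 11.1% of all genes were. At an unadjusted p below 0.05 there were 13, DESeq2 called 2 higher and 4 lower, and limma-voom 0 and 3. The 2 lower ones were at the limit of detection in BAT. Col6a4 had 1 count in the 3 cold BAT libraries and 379 in the sWAT ones, a ratio of 271 with a 95% counting interval of 48.3 to 10716. Col9a2 had 0 and 16 counts, so it was at least 3.81-fold higher in sWAT against a floor of 3 counts over the group (the 95% counting interval starts at 2.75), and its adjusted p by edgeR was 0.0606 to 0.0826 without BAT cold library 1, 2 or 3 or sWAT cold library 1.

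Genes that act on collagens or share their matrix were taken from lists of known function. In BAT, of 12 tested genes for procollagen processing and crosslinking, Loxl1 and Lox rose, Tll1 fell and 9 did not pass. Over all genes tested there, 6.82% rose and 5.34% fell. Loxl1, a lysyl oxidase that crosslinks fibres, stood at 11.0, 7.12 and 4.68 CPM at thermoneutrality and at 185, 188 and 34.9 CPM in cold (4.22 ± 0.66, adjusted p = 0.00773 by edgeR). Cold library 3 was far below the other two cold libraries and still above every thermoneutral one. Lox, the main lysyl oxidase, stood at 13.6, 14.5 and 7.31 CPM and at 22.0, 24.7 and 31.8 CPM (1.21 ± 0.33, adjusted p = 0.0462 by edgeR). Tll1, a protease of the procollagen end, stood at 1.16, 0.706 and 0.773 CPM and at 0.179, 0.181 and 0.235 CPM (-2.05 ± 0.43, adjusted p = 0.0188 by edgeR).

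Among 17 other basement membrane components tested in BAT, 2 rose, 1 fell and 14 did not pass, with a median of 0.12; over all genes 6.82% rose and 5.34% fell. The laminin chain gene Lamc3 stood at 21.3, 13.9 and 6.44 CPM at thermoneutrality and 68.2, 66.7 and 45.7 CPM in cold (2.18 ± 0.43, adjusted p = 0.0157 by edgeR). Lamb3, another laminin chain, rose by 1.41 ± 0.37, and Smoc2, a calcium-binding matrix protein, fell by 1.50 ± 0.37 on the log2 scale. None of 18 genes for chain modification and folding passed by edgeR in BAT (2 at an unadjusted p below 0.05), and the prolyl hydroxylase gene P4ha2 had the smallest adjusted p (0.68 ± 0.26, adjusted p = 0.119 by edgeR). None of 14 degradation genes passed by edgeR either (5 at an unadjusted p below 0.05), with the protease inhibitor gene Timp4 closest (-1.54 ± 0.45, adjusted p = 0.0573 by edgeR). Of 15 fibril-binding proteoglycans and partners, Prelp (1.47 ± 0.31) and fibronectin Fn1 (1.97 ± 0.51) rose and Thbs1 fell by 1.86 ± 0.46. Of 10 collagen receptors the integrin gene Itga11 rose (1.69 ± 0.41), and of 18 TGF-beta ligands and matrix regulators Cyr61 fell by 1.74 ± 0.25 and Ltbp2 by 1.39 ± 0.28.

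In sWAT, enzymes of collagen synthesis changed in both directions, beside 25.1% higher and 24.1% lower over all genes. Of 12 processing and crosslinking genes 7 were lower and 1 higher, with a median of -1.11, and with the GC offset 5 and 1. The protease genes Bmp1 (-1.66 ± 0.22), Adamts14 (-2.60 ± 0.34) and Adamts2 (-1.39 ± 0.22), which cut the ends of procollagen, had the smallest adjusted p and were called with the offset as well. Of 19 genes for chain modification and folding 8 were lower and 3 higher, and with the offset 3 and 3. They include P3h3 (-1.80 ± 0.26; -0.60 with the offset), of the prolyl 3-hydroxylase family, Fkbp10 (-1.65 ± 0.25; -0.76 with the offset), a chaperone, and Plod3 (-1.21 ± 0.24), a lysyl hydroxylase that lost its call with the offset (-0.29). Of 14 degradation genes 5 were lower and 3 higher, and with the offset 2 and 3. Mmp9, a gelatinase, was lower in both fits (-2.01 ± 0.32; -1.38 with the offset). Mrc2, a receptor that takes up collagen fragments, was lower without the offset and not with it (-1.44 ± 0.26; -0.46 with the offset). Mmp12, the macrophage elastase, was higher (5.19 ± 0.95; 3.59 with the offset). It was near the limit of detection at thermoneutrality, at 0.0232, 0.0485 and 0.133 CPM against 5.52, 0.656 and 1.75 CPM in cold.

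Of 17 proteoglycans and partners 5 were higher and 2 lower in cold sWAT, or 3 and 2 with the offset, where over all genes 25.1% were higher and 24.1% lower. They include Aspn (4.89 ± 0.48; 2.32 with the offset) and Omd (6.28 ± 1.02; 4.21 with the offset) on the higher side and Comp (-2.52 ± 0.42; -1.38 with the offset) on the lower. Omd was at the limit of detection at thermoneutrality, at 0, 0.0243 and 0 CPM against 1.46, 0.417 and 0.438 CPM in cold, so the size of its change is uncertain. Of 17 other basement membrane components 1 was higher and 2 lower, and with the offset 4 and 0. Lamc3 was higher in both fits (2.08 ± 0.61; 2.99 with the offset), as in BAT, while Lamb2 (-1.18 ± 0.31) and Lama5 (-0.84 ± 0.25), other laminin chains, lost their calls with the offset. Of 11 collagen receptors, Itga1 (1.53 ± 0.25) and Ddr2 (1.34 ± 0.39) were higher and Ddr1 (-0.90 ± 0.28) lower, and with the offset 0 passed by edgeR (2 at an unadjusted p below 0.05). Of 18 TGF-beta ligands and regulators 2 were higher and 4 lower, and with the offset 5 and 2, so the balance of calls turned. Smad7, an inhibitor of the pathway, was lower in both fits (-2.11 ± 0.24; -1.29 with the offset), as was the matrix protein gene Tgfbi (-1.16 ± 0.24; -0.78 with the offset). Tgfb1 itself was lower without the offset and not with it (-1.43 ± 0.25; -0.06 with the offset, adjusted p = 0.867 by edgeR).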

How the data were processed

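RNA of BAT and sWAT from mice housed at 4 °C or 30 °C was sequenced from 1000 ng of RNA as TruSeq total RNA libraries with 100 nt paired reads, per the labels' protocols. The values are whole-number counts per gene as deposited by the authors. STAR, DESeq2 and mm10 are named in the submitters' processing notes. For the read counter, annotation and strand setting, the sources used here name nothing. The first BAT cold column and the second sWAT cold column are marked as merged, which the labels do not explain.

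Counts were analysed in R 4.3.3 with edgeR 4.0.16 (TMM scaling, filterByExpr, robust quasi-likelihood fit, Benjamini-Hochberg adjustment over all genes tested, threshold 0.05) and in Python 3.11.15. Each tissue's comparison used its 6 libraries. The difference between tissues and the tissue comparisons used 12. The SE is the log2 fold change divided by the square root of F. CPM used TMM factors over the 12 libraries, and lengths and GC content came from the longest transcript in GENCODE M21 (mm10), known for 96.0% of genes and all 44 collagens. The GC offset is a lowess fit (span 0.3) of each library's log2 CPM deviation (prior count 2) on GC. Counting intervals are 95% and cover counting error only. Alternatives were RLE and upper quartile scaling, no mitochondrial genes, other filters, DESeq2 1.42.0, limma-voom (limma 3.58.1), a non-robust fit, leaving out libraries, a replicate block and the GC offset. Scripts were tested on simulated data. No 2 libraries held identical values.

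The collagens, their classes and the lists were chosen with earlier results of these data known. Genes were named by rule: the 3 collagens of highest CPM per kb in each class, each collagen past the threshold in a cold comparison or in the difference, up to 3 on each side between tissues, and up to 3 genes per list with the smallest adjusted p past the threshold, or 1 where none passed. Other collagens are described to account for every member. Same-numbered libraries were not taken as pairs. Marker lists for other cell types were summed as CPM. Beside those in the results, lymphocyte markers summed to 846 to 1226 CPM in sWAT at thermoneutrality, 239.7 to 781 in sWAT cold and 3.94 to 11.5 in BAT. Smooth muscle and pericyte markers summed to 267 to 425 CPM in sWAT at thermoneutrality, 437 to 889 in sWAT cold and 696 to 1037 in BAT. In BAT, fibroblast and progenitor markers summed to 855 to 1822 CPM at thermoneutrality and 735 to 1079.8 in cold. Skeletal muscle markers summed there to 3746 to 11511 and 4329 to 7023 CPM. Epithelial markers summed to 0.181 to 7.07 CPM (3 of 8 at 0 in BAT) and mesothelial markers to 1.73 to 6.88.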

Additional observations from a re-analysis of the deposited data

Results flagged for a closer look

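The response to cold differed between the tissues for 13 collagens by a test of the difference itself, the log2 fold change in sWAT minus that in BAT, in an edgeR fit over 12 libraries. Among fibrillar collagens it was -3.11 ± 0.52 (SE) for Col1a1, -2.16 ± 0.51 for Col1a2, -1.90 ± 0.54 for Col3a1, -1.55 ± 0.43 for Col5a1, -1.57 ± 0.48 for Col5a2 and -2.32 ± 0.61 for Col5a3. For Col24a1 it was 2.80 ± 0.71, as this low gene was higher in cold sWAT and lower, without passing the test, in every cold BAT library. Fibril-associated Col14a1 and Col16a1 had values of -2.14 ± 0.55 and -2.28 ± 0.50. Among basement membrane collagens it was -1.83 ± 0.51 for Col18a1 and -1.98 ± 0.62 for Col4a1. For Col28a1, lower in cold BAT, it was 2.47 ± 0.51. For Col8a2, with 81 counts in all 12 libraries together, it was -4.82 ± 1.08. With the GC offset Col1a2, Col4a1, Col5a1, Col5a3, Col16a1 and Col18a1 no longer passed, and the other 7 did. The sWAT thermoneutral libraries set apart by GC slope and mitochondrial share enter every one of these differences, and that cannot be told apart from temperature. Leaving out 1 library also ended calls by edgeR. Without sWAT cold library 3 the adjusted p was 0.0506 for Col5a1, 0.0524 for Col18a1, 0.0575 for Col3a1, 0.0653 for Col4a1 and 0.0780 for Col5a2. Without sWAT thermoneutral library 1 it was 0.0521 for Col18a1, 0.0507 for Col3a1, 0.0862 for Col4a1 and 0.0684 for Col5a2. Col4a1 lost its call also without BAT thermoneutral library 3 or sWAT thermoneutral library 2. Col5a2 did so without BAT thermoneutral library 2 or 3, sWAT thermoneutral library 2 or sWAT cold library 2, and Col24a1 without BAT cold library 1 or 2 (0.0521 and 0.0520).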

How the results depend on the processing

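In BAT, 2 collagens were higher and 3 lower. Upper quartile scaling gave 1 higher, and it moved the median of all genes from -0.04 to -0.20 and the share of higher calls among all genes from 56.0% to 41.5%. The lower count was 5 with DESeq2, 6 with the GC offset, 12 without both BAT libraries numbered 3, and 6 in a fit over 12 libraries that was added after seeing the data. Leaving out 1 library gave 0 to 2 higher and 2 to 6 lower. In sWAT, with 3 higher and 19 lower, a filter of 1 CPM in 3 libraries left 0 higher, since low genes were no longer tested. The GC offset gave 7 higher and 11 lower, and leaving out 1 library gave 1 to 4 higher and kept 13 to 18 of the 19 lower calls. For the difference between tissues, with 2 higher and 11 lower, the GC offset gave 5 and 5, and leaving out 1 library gave 1 to 3 higher and 6 to 14 lower. RLE scaling moved the share of higher calls among all genes from 68.7% to 58.4%, and leaving out mitochondrial genes to 59.7%. For BAT against sWAT in cold, with 0 higher and 2 lower, DESeq2 gave 2 and 4, the GC offset 3 higher, the 1 CPM filter 1 lower, and leaving out 1 library 0 to 2 higher and 1 to 4 lower. There the GC offset moved the share of higher calls among all genes from 9.68% to 34.8%. The cause of these shifts was not tested. Of the collagens that passed in a comparison, 0 turned direction in that same comparison in these alternatives. In comparisons where they had not passed, 29 genes turned, and 3 of them passed after turning. Some of the 29 had passed in another comparison, such as Col3a1, which turned in BAT, and Col4a1, which turned in sWAT. Of those that passed after turning, Col7a1 in sWAT went from -0.20 to 1.00 with the GC offset. Col8a1 in BAT went from 0.31 to -0.85 without both BAT libraries numbered 3. Col11a2 between tissues at thermoneutrality went from -0.44 to 0.84 with the GC offset.

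Same-numbered libraries correlated in their deviations at 0.31, 0.07 and 0.28 in BAT and at -0.23, 0.18 and -0.32 in sWAT, so the numbers were not taken as pairs. In BAT, and not in sWAT, every cold library correlated best with its own number. Over all genes, the replicate block moved the calls from 996 higher and 781 lower to 1493 and 1306 in BAT. In sWAT it moved them from 3950 and 3784 to 3302 and 3207. With the replicate block there were 2 higher and 5 lower in BAT, 2 and 18 in sWAT, 2 and 13 for the difference, and 0 and 4 for the tissues in cold. The block with the GC offset gave 7 lower in BAT, 6 higher and 9 lower in sWAT, 5 and 5 for the difference and 1 higher for the tissues in cold. Genes such as Col8a2, Col9a2 and Col10a1 rest on few counts, which limits their precision.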
